A study of Rattus norvegicus with 4 samples.

Results

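Matrix metalloproteinases (MMPs) and tissue inhibitors of metalloproteinases (TIMPs) were followed in ROE2, a rat oral epithelial line, over 9 days at 37 °C. All probe sets annotated to 6 MMP genes (Mmp2, Mmp3, Mmp9, Mmp10, Mmp13 and Mmp14) and 3 TIMP genes (Timp1, Timp2 and Timp3) were taken, which gave 16 of the 31099 probe sets on the array and 9 of 14218 named genes. ROE2 was derived from fetal tongue (18 days old) of a Wistar rat bearing a gene for a temperature-sensitive SV40 large T antigen, and the cells of all 4 groups carry it. They grew on collagen type I in medium with 2% serum, insulin, transferrin, ethanolamine, selenite and 10 ng/ml EGF, for 24 h at 33 °C and then for 0 days (the control), 3, 6 or 9 days at 37 °C. Each day was measured on 1 Affymetrix 3' expression array, so there are no replicates, no p-value is given, and day and array cannot be told apart. The precision is limited by the number of arrays, and all groups are the same line in culture.

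MMPs are zinc-dependent proteases that cut collagens, laminins, fibronectin and other proteins around cells. Most are secreted as inactive precursors, are switched on when a propeptide is removed, and are blocked by TIMPs, which bind the active site. In stratified epithelia several MMP genes are known to be switched on at wound edges and in cultured cells that spread and migrate, and to be low in the resting tissue. Many of their promoters hold an AP-1 element, bound by dimers of Fos and Jun proteins, shortly before a TATA box.

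The promoters are shown because the genes of the secreted proteases Mmp3 and Mmp13, both lower after day 0, lie in the same gene cluster as Mmp10 and have a similar layout. RefSeq promoter windows (build GRCr8) were matched by symbol for 6 of the 9 genes, and the 120 bases before the start used in that table are given for 5 of them, 5′ to 3′ on the strand of the gene. Capitals mark TGANTCA, the AP-1 letters, and TATAA, each searched on both strands. The windows are chr8:12925161-12925280 on the plus strand for Mmp3, chr8:12974587-12974706 plus for Mmp10, chr8:12782709-12782828 plus for Mmp13, chrX:3771123-3771242 minus for Timp1 and chr10:104089215-104089334 minus for Timp2.
Mmp3: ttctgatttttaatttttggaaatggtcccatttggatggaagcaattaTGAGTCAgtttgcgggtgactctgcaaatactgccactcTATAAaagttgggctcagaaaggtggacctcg
Mmp10: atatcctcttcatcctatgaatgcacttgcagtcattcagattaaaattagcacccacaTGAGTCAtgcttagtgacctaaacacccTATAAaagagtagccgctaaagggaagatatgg
Mmp13: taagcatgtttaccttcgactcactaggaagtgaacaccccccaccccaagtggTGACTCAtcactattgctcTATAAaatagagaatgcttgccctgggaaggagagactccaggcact
Timp1: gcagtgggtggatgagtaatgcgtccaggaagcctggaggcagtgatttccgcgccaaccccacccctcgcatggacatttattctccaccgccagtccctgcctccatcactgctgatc
Timp2: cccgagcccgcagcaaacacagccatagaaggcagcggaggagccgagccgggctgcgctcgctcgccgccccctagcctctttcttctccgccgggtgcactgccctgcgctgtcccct

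The AP-1 letters began 71 bases upstream of the start in Mmp3, 61 in Mmp10 and 66 in Mmp13, and TATAA began 32, 33 and 47 bases upstream. Exact matches to the AP-1 letters or TATAA were in none of the 3 TIMP windows. The Timp1 window does hold TGAGTAA, which has A where the AP-1 letters have C and was not searched for. Over 33469 promoter windows of the same length, 3.01% held the AP-1 letters, 12.8% held TATAA or its reverse complement, and 0.529% held both. The ETS core AGGAA (or its complement TTCCT) was found in Mmp13 and Timp1 among the 6 windows, and in 36.0% of all promoters. The TIMP windows were richer in G and C, at 59.2% for Timp1 and 70.8% for Timp2 against 41.7% for Mmp3, 40.0% for Mmp10 and 48.3% for Mmp13. A match is a description of the letters and was not tested for binding.

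**Figure D1:**
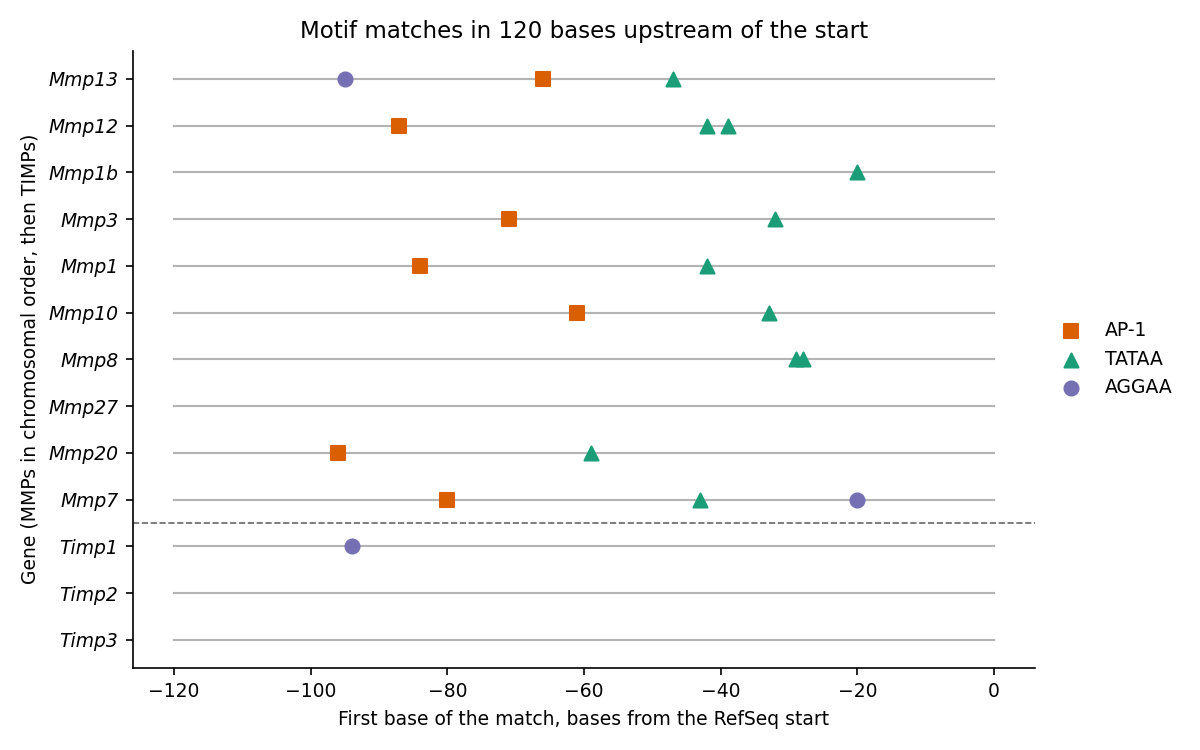
Each line is the 120 bases upstream of a RefSeq gene start (x axis, bases from the start), for the 10 MMP genes of the chromosome 8 cluster in chromosomal order and then the 3 TIMP genes; squares mark the AP-1 letters, triangles TATAA and circles AGGAA, on either strand. The AP-1 letters lie upstream of TATAA in 7 of the 10 cluster genes and have no exact match in the TIMP windows.

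The array values are log2 probe set values. A pair of reference levels is used. A gene is counted in comparisons over all genes if it reaches 6 on at least 1 array, which 8802 genes did, and a value counts as near background if it is no higher than the top reading among 27 bacterial control probe sets of the same array. Those top readings were 4.19, 4.36, 4.51 and 4.56 on days 0, 3, 6 and 9. A difference of 1 or more, that is 2-fold, is counted as higher or lower. Of the 9 genes 5 reached 6, namely Mmp3, Mmp13, Mmp14, Timp1 and Timp2, while Mmp2, Mmp9, Mmp10 and Timp3 did not. Mmp3 and Mmp13 reached it on day 0 alone and so had to be lower on the other arrays, whereas Mmp14, Timp1 and the brighter Timp2 probe set were above it on every array.

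Mmp3 encodes stromelysin, which cuts many matrix proteins and activates other MMP precursors. Its 1 probe set (1368657_at) read 9.80 on day 0, 3.12 on day 3, 2.91 on day 6 and 4.25 on day 9. The day 0 array was bright, and the 3 later arrays did not exceed the brightest bacterial control. Mmp3 was therefore at least 43.6-fold lower on day 3 than on day 0, at least 39.1-fold lower on day 6 and at least 38.0-fold lower on day 9. With all values below the controls set to them, its difference was -5.45, -5.29 and -5.25 and ranked 2, 2 and 1 from the bottom of the 8802 genes. Mmp3 is among these genes through its day 0 value alone, so its low place in these ranks was partly set by that choice. The rise of 1.34 from day 6 to day 9 lies below the control level on both arrays, and no fold is given for it. In a bulk sample, fewer cells with a transcript and less of it per cell cannot be told apart.

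Mmp13 encodes a collagenase that cuts fibrillar collagens. Its 1 probe set (1388204_at) read 6.89, 3.34, 4.17 and 5.82 on days 0, 3, 6 and 9. It was low on days 3 and 6, when it was below the brightest control, and on day 9 it stood between those arrays and day 0. Mmp13 was at least 5.80-fold lower on day 3 and at least 5.21-fold lower on day 6. On day 9 it was 2.10-fold lower, and this call was lost when arrays were centred on the median gene, at -0.96, and after a further quantile normalization, at -0.98. From day 6 to day 9 it was at least 2.48-fold higher, and with values below the controls set to them its difference of 1.31 ranked 6 from the top of 8802 genes.

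Mmp9 encodes a gelatinase that cuts basement membrane collagen. One of its probe sets (1398275_at) read 5.98, 2.57, 2.98 and 3.99 on days 0, 3, 6 and 9, and the other (1369166_at) 5.82, 3.65, 3.29 and 4.19. Both sets exceeded the bacterial controls on day 0 alone, and both were lowest on day 3 or 6 and somewhat brighter on day 9. The gene was just under the level of 6, so it is outside the counts over 8802 genes. Against the control level it was at least 3.07-fold lower on day 3 by the first set and at least 2.75-fold lower by the second, and on day 9 at least 2.68-fold and 2.40-fold lower.

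Mmp10, the other stromelysin gene of the set, read 3.70, 2.64, 3.18 and 3.72, never above the brightest control. Its difference of -1.06 on day 3 lies wholly in that range, and with values below the controls set to them it was 0.16. Mmp2, the gene of the gelatinase that Mmp14 activates, read 4.79, 4.95, 5.19 and 4.82 in the brighter of its probe sets (1370301_at), a range of 0.40 slightly above the controls. The other set read between 3.91 and 4.58 and exceeded the control on day 6 only. No 2-fold difference was seen in either set, and at these levels small changes would not be detectable.

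Mmp14 encodes the membrane-anchored protease MT1-MMP, which cuts collagen at the cell surface and activates the Mmp2 precursor in a complex that contains Timp2. Its brighter probe set (1367860_a_at) read 9.89, 9.42, 9.96 and 10.20 on days 0, 3, 6 and 9, and the other (1378225_at) 8.22, 7.93, 8.29 and 8.11. All 4 arrays were well above the controls, day 3 was lowest in both sets, and the order of the other days differed between them. The differences from day 0 were -0.47, 0.07 and 0.31 in the brighter set, under 2-fold each time. The day 6 and day 9 values were -0.32 and -0.32 under centring on the hybridisation spike-ins (transcripts added in a fixed amount), which turns their direction. No 2-fold difference was thus seen in the membrane-bound member.

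**Figure D2:**
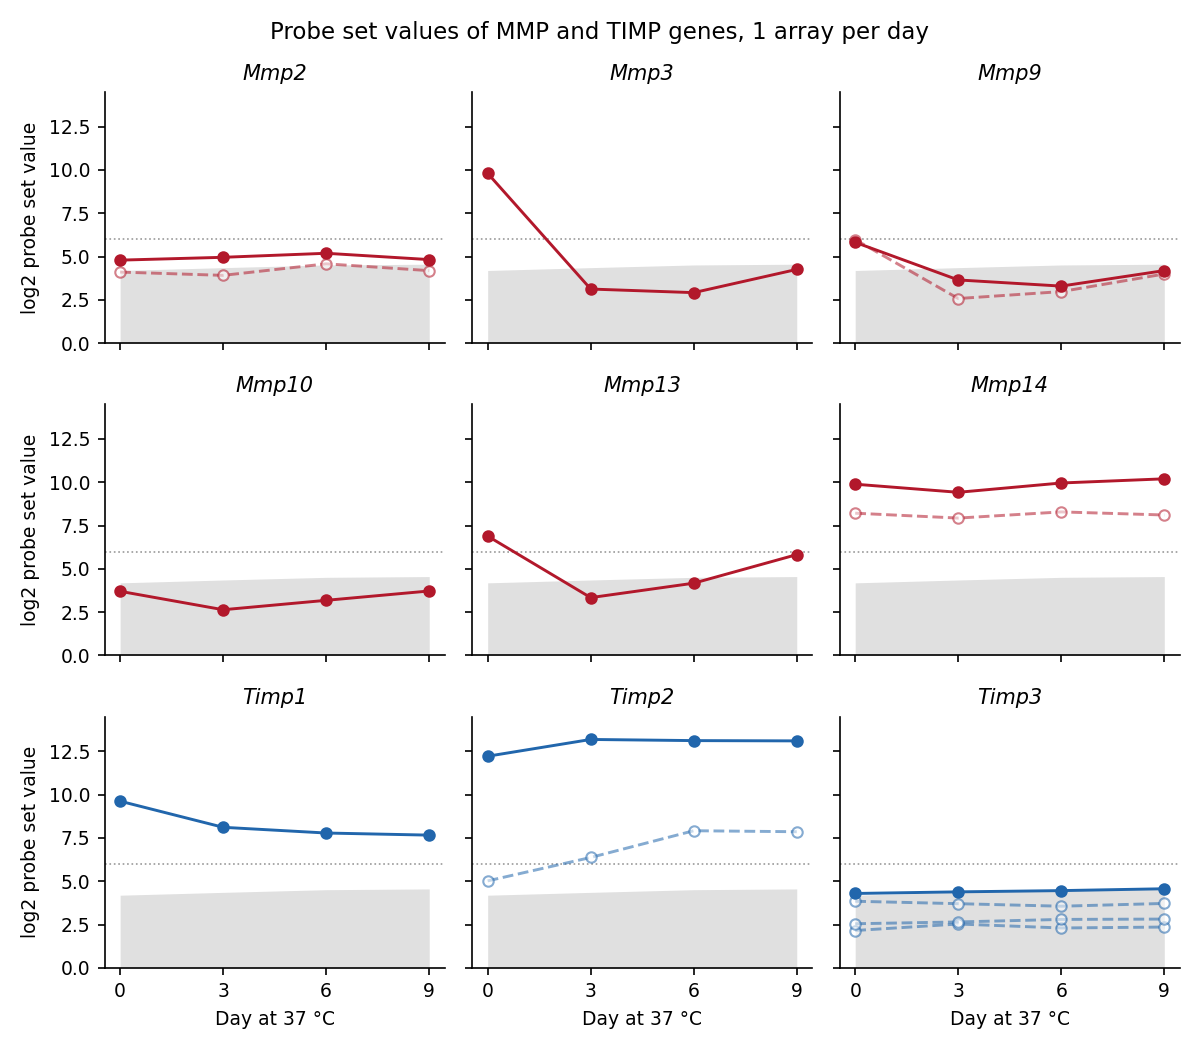
Each panel plots the log2 value of every probe set of 1 gene (y axis) against the day at 37 °C (x axis), red for MMPs and blue for TIMPs; filled symbols and solid lines are the probe set with the highest mean, open symbols and dashed lines the others, grey the range up to the brightest bacterial control, and the dotted line the level of 6. Mmp3 and both Mmp9 probe sets leave the grey range on day 0 only, Mmp13 on days 0 and 9, and the TIMP panels show Timp1 lower and both Timp2 probe sets above their day 0 value afterwards.

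Among the inhibitors Timp1 was lower than on day 0 on each later day, and Timp2 was 2-fold or more higher in 1 of its 2 probe sets and just under 2-fold in the other. Timp1, a secreted inhibitor that is readily induced by growth factors and cytokines, read 9.62, 8.11, 7.78 and 7.66 in its 1 probe set (1367712_at). It was highest on day 0 and lower on each later array, all far above the controls. It was 2.84-fold lower on day 3, 3.58-fold on day 6 and 3.89-fold on day 9, and its direction and 2-fold call were the same under every scaling tried. With differences of -1.51, -1.84 and -1.96 it ranked 53, 83 and 46 from the bottom of 8802 genes, again with values below the controls set to them.

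Timp2 inhibits MMPs and also takes part in Mmp2 activation. Its bright probe set (1386940_at) read 12.22 on day 0 and 13.19, 13.12 and 13.10 on days 3, 6 and 9. All 3 later arrays were higher by 0.97, 0.90 and 0.89, just under 2-fold, and close to one another. The other probe set (1367823_at) read 5.02, 6.37, 7.92 and 7.86 and was 2.55-fold, 7.44-fold and 7.16-fold higher than on day 0. Both sets differed from day 0 in the same direction on every later day, but they parted by 1.99 on day 6 and 1.95 on day 9, so the size of the difference depended on the probe set. Centred on the spike-ins, the bright set kept its direction, at 0.83, 0.51 and 0.25. The difference between the 3' and 5' probe sets of beta-actin, a measure of how complete the labelled RNA was, read 2.25, 2.44, 1.22 and 2.35 on days 0, 3, 6 and 9. The same measure for Gapdh was near 0 on each array, at 0.10, 0.04, -0.02 and 0.18. RNA integrity numbers were given as 9.5 to 10 for all groups. The part of RNA completeness in the values of single probe sets was not tested.

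Timp3, an inhibitor that stays bound to the matrix, had 4 probe sets. The brightest (1389836_a_at) read 4.29, 4.39, 4.46 and 4.57, close to the controls on every array, and the other 3 lay between 2.16 and 3.84. No probe set differed by 2-fold between any 2 days.

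By the 2-fold rule, Mmp3, Mmp13 and Timp1 were lower on days 3, 6 and 9 than on day 0. In the brightest probe set of each gene, 0 of the 5 genes that reached 6 were higher. For Timp2 this depended on the probe set, as its other set was 2.55-fold, 7.44-fold and 7.16-fold higher on those days. Timp2 was also called higher on each of them with the mean over probe sets or at 1.5-fold. Of all 8802 genes 2.15%, 8.08% and 6.25% were lower on those days, and 4.31%, 5.74% and 5.57% higher. Mmp3 and Mmp13 reached 6 on day 0 alone and so had to be lower later. Of the genes called lower, only Timp1 can therefore be set against these shares. Without the level of 6, 5 of the 9 genes were lower on day 3 and 4 on days 6 and 9, against 1.66%, 5.7% and 4.48% of 14218 genes. The genes added were Mmp9 on each day and Mmp10, within the control range, on day 3. From day 3 to day 6 no member differed by 2-fold (2.43% of all genes did). From day 6 to day 9 Mmp13 and Mmp3 were higher, where 0.25% of all genes were, and for Mmp3 both values lay below the controls. The middle 95% of all genes spanned -0.61 to 0.60 between days 6 and 9, and -1.33 to 1.46 between days 0 and 9.

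**Figure D3:**
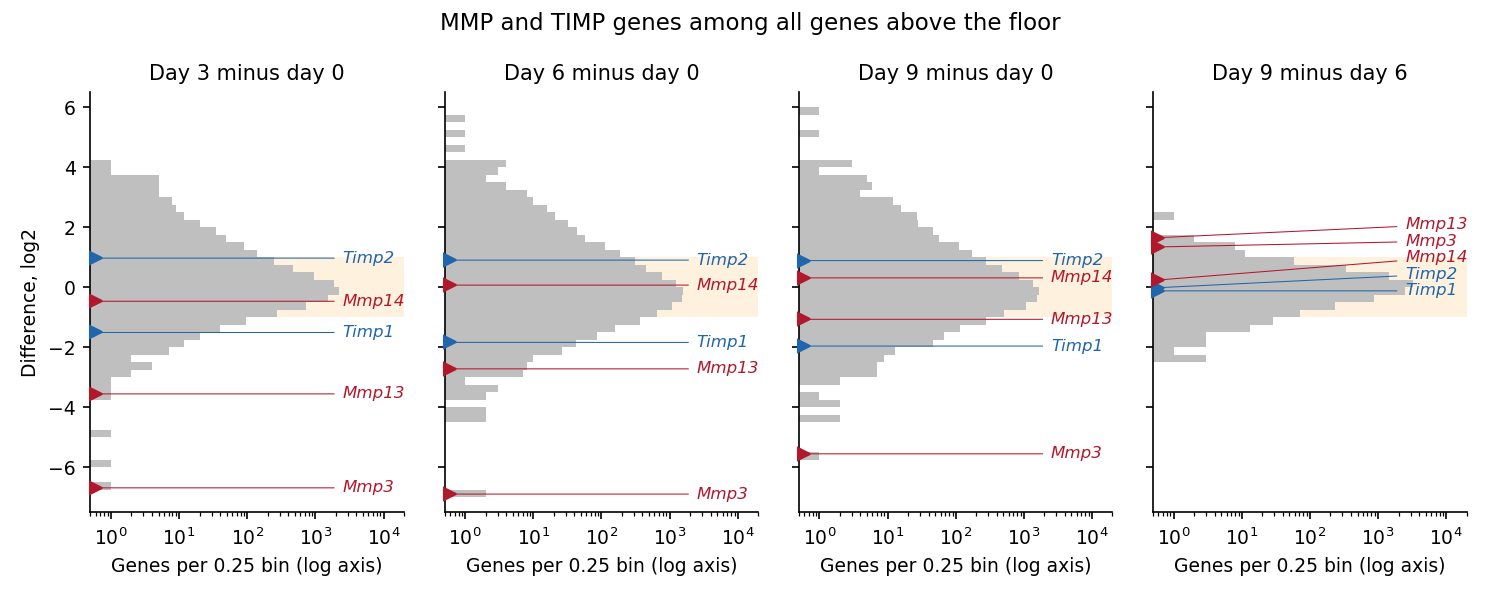
Grey bars count the 8802 genes that reach 6 by their difference between 2 arrays (y axis, log2; x axis, genes per bin on a log scale), and arrowheads mark the 5 member genes among them, red for MMPs and blue for TIMPs; the shaded band holds differences under 2-fold. Values are drawn as measured, so those of Mmp3 after day 0 and of Mmp13 on days 3 and 6 are below the bacterial controls; Timp2 lies just inside the band in the comparisons with day 0, and Timp1 below it.

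Mmp3, Mmp10 and Mmp13 lie in a run of 10 MMP genes on chromosome 8 in RefSeq, in the order Mmp13, Mmp12, Mmp1b, Mmp3, Mmp1, Mmp10, Mmp8, Mmp27, Mmp20 and Mmp7. Of their promoters, 7 of 10 held the AP-1 letters within 120 bases and 9 of 10 held TATAA. Of the 6 cluster genes matched on the array, Mmp12, Mmp10, Mmp8 and Mmp7 did not exceed the controls on any array, so a change in them was not detectable. Mmp12, the macrophage elastase gene, read 3.99 on day 0 and 3.12 to 3.32 later. The nearest genes outside the cluster, chosen by position, did not follow Mmp3. Dync2h1 and Dcun1d5 differed by -0.49 and -0.26 on day 9, Birc2 and Birc3, which encode inhibitors of apoptosis, by 0.41 and 0.02, and Tmem123 by 0.86, after 1.02 on day 3 and 1.26 on day 6. Pdgfd did not exceed the controls.

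The other MMP genes showed little. Of 12 genes on the array in a list of the remaining MMPs and Timp4, 2 reached 6 and none of these differed by 2-fold on any day. Mmp24, a membrane-type MMP, read 7.45, 7.60, 7.93 and 7.98, and Mmp28, also called epilysin and known from keratinocytes, read 5.25, 5.98, 6.05 and 5.64. The median difference of these 2 on day 9 was 0.46, or -0.18 under spike-in centring, against -0.14 for all genes.

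The genes whose course was most like that of each member were found by the root mean square distance between their differences from day 0 on days 3, 6 and 9, over 8797 genes that are not members and 4 arrays. For Mmp3 and Mmp13 these distances use values below the bacterial controls as measured. For Mmp3 the nearest was Ccl2, which encodes a monocyte chemokine, at a distance of 0.83 and with differences of -5.76, -6.80 and -4.44. The next, the guanylate-binding protein genes Gbp2 and Gbp4, were 2.82 and 2.85 away. For Mmp13 the nearest were Pmepa1, a TGF-beta target (0.78), Dact2 (0.93) and Fscn1, the gene of the actin bundler fascin (0.93). Pmepa1 read 10.87, 6.04, 8.37 and 9.42, low on day 3 and then part of the way back, as Mmp13 did. For Timp1 the nearest were Id2 (0.11), Adarb1 (0.12) and Fkbp9 (0.13), all lower by similar amounts on each day.

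Other regulators of MMP activity differed in both directions. Of 11 genes that reached 6 in a list of membrane and secreted regulators, 4 were lower and 1 was higher on day 9, when 6.25% of all genes were lower and 5.57% higher. The list median was -0.58 against -0.14 for all genes. Under spike-in centring 6 were lower and 0 higher with a median of -1.22, and the median was -0.24 with unmarked probe sets. With a level of 8, 1 of 8 genes was lower and 1 higher, and the median was -0.19. At a threshold of 3-fold 0 were lower and 0 higher. Reck, which encodes a membrane-anchored inhibitor of several MMPs, read 6.59, 5.89, 5.35 and 5.34 with a difference of -1.25 on day 9. Reck reached 6 on day 0 alone, and Thbs2 on days 0 and 3 alone. Their lower values on day 9 were thus partly set by that level, and these calls cannot be set against the shares of all genes. Spp1, the osteopontin gene, differed by -1.58, the caveolin gene Cav1 by -1.29 and Thbs2 by -1.02, and the claudin gene Cldn1 by 1.34 (0.44 and 0.64 in its other probe sets). Bsg, which encodes the MMP inducer basigin, differed by -0.15, and Furin, whose product cuts the Mmp14 precursor, by 0.73. Timp1 was lower on day 9, as was Reck with the limit given above, while Timp2 was at 0.89 and 2.84 in its probe sets.

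In the plasminogen activator system, whose protease plasmin can activate MMP precursors, 1 of 7 genes was higher and 1 lower on day 9 (5.57% and 6.25% of all genes), and the median was -0.41. After centring on the spike-ins 4 of the 7 were lower and 1 higher, and the median was -1.04. Plat, the tissue plasminogen activator gene, read 7.70, 9.31, 9.45 and 9.73, a difference of 2.03. Serpine2, the gene of an inhibitor of plasminogen activators and thrombin, read 10.88, 11.56, 9.70 and 8.68, a difference of -2.20. The urokinase gene Plau differed by -0.58 and Serpinb2 by 0.77.

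Genes of AP-1, ETS and RUNX factors differed in both directions on day 9. Of 13 that reached 6, 4 were higher on day 9 and 1 lower, where 5.57% and 6.25% of all genes were, and the median was 0.14. With the spike-in scaling 3 were higher and 3 lower, and the median was -0.49. Without that scaling 3 were higher and 0 lower by 2-fold on day 3, and 5 higher and 0 lower on day 6. Of all genes 4.31% and 5.74% were higher on those days, and 2.15% and 8.08% lower. Fos read 6.45, 8.03, 8.72 and 8.06 in its brighter probe set, a difference of 1.61 on day 9, while a dim second set differed by 0.39. Fosl2 was 1.91 higher in log2, Junb 1.77 and Atf3 1.68, and Jun differed by 0.63. Among the ETS factor genes Etv5 differed by -1.45, Ets1 by -0.60 and Ets2 by 0.50. Etv4, another ETS factor gene, read 6.25 on day 0 and 5.25 on day 9, just inside the 2-fold limit. Fosl1, an AP-1 gene, differed by -0.26. RNA levels do not measure the activity of these proteins.

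Of 11 genes for inducers of MMPs and their receptors, 2 were higher and 1 lower on day 9 (5.57% and 6.25% of all genes), and the median was 0.40. On the spike-in scale 0 were higher and 1 lower, and the median was -0.24. The EGF receptor ligand genes differed among themselves, with Areg at -1.26, Ereg at 1.15 and Tgfa at 1.07. The interleukin-1 gene Il1a read 9.35, 9.47, 9.28 and 9.21 with little change, and Tnfrsf1a, the TNF receptor gene, differed by 0.94.

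Among the matrix proteins that MMPs cut, 8 of 13 genes were lower on day 9 and 0 higher, where 6.25% and 5.57% of all genes were. The median was -1.26 against -0.14 for all genes, and -1.89, with 9 lower, under spike-in centring. It was -0.25 over 21 genes without the level of 6 and -0.65 over 17 with a level of 5, with 8 lower each time. At a threshold of 3-fold 3 were lower. Col4a2, Col6a1, Col7a1 and Hspg2 stayed under 6 but above the controls on every array, and differed by 0.06, 0.07, -0.15 and 0.56. The fibronectin gene Fn1 read 11.92, 10.88, 9.82 and 9.66, and the laminin-332 genes Lama3 and Lamb3 differed by -1.88 and -1.46. The collagen gene Col5a2 differed by -2.87 (-1.22 in a dim second set). Col5a2 reached 6 on day 0 alone and so had to be lower later. Its day 9 value of 3.58 was below the brightest bacterial control of 4.56, which leaves the size of its difference uncertain. Col17a1, a hemidesmosomal collagen, was at 0.02. On day 3, 4 of the 13 were lower, against 2.15% of all genes. The list of ADAM and ADAMTS proteases, related metalloproteinases that shed cell surface proteins or cut proteoglycans, had 4 genes that reached 6, none 2-fold apart on day 9, among them Adam17 at 0.89 and Adam15 at 0.67.

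**Figure D4:**
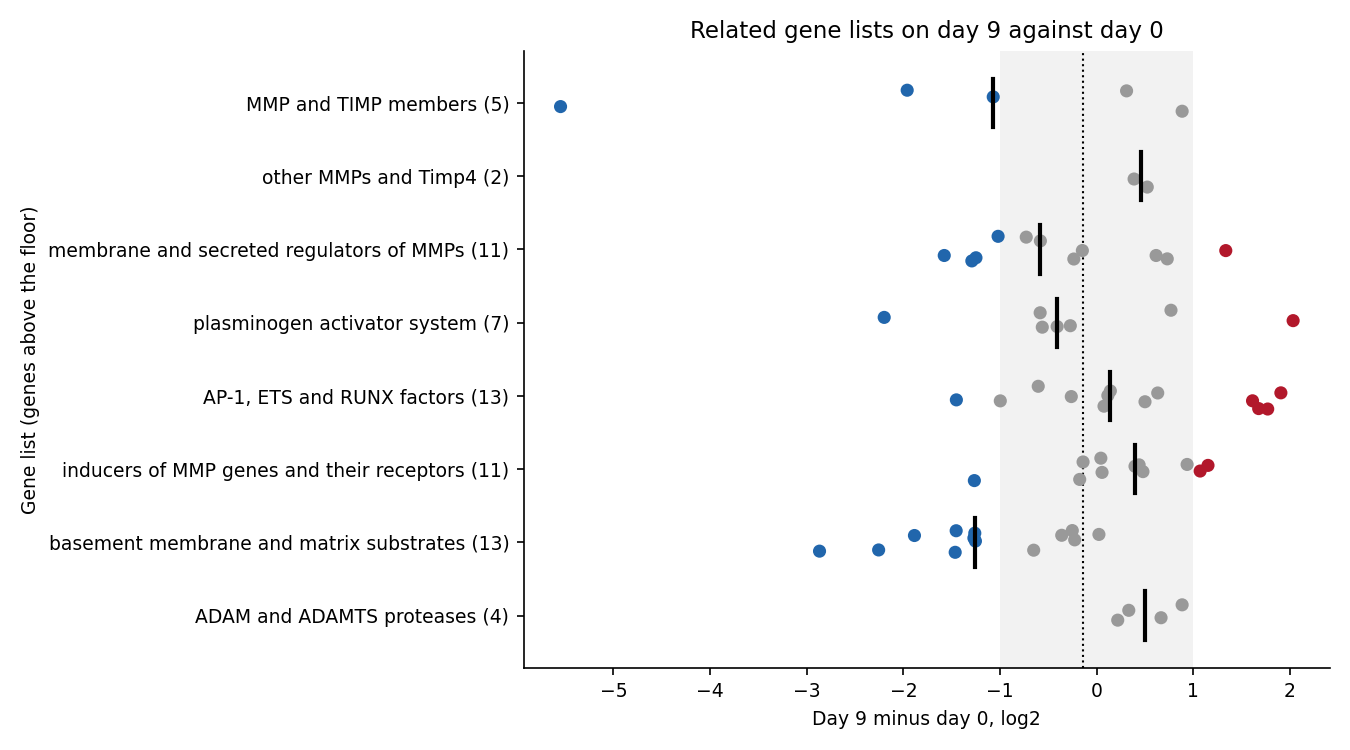
Points are genes that reach 6 on at least 1 array, by their day 9 minus day 0 difference (x axis, log2), for the member genes and 7 related lists (y axis, number of genes in brackets); red is 2-fold or more higher, blue 2-fold or more lower, grey neither, black bars are list medians, and the dotted line is the median of all 8802 genes. The matrix substrate list has 8 genes at or beyond 2-fold lower and 0 higher, and the 4 red points of the factor list are Fosl2, Junb, Atf3 and Fos.

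The labelled cell type was checked with marker lists. All 11 oral epithelial markers on the array exceeded the controls on every array, with Krt5 at 13.44 and Krt14 at 14.11 on day 0. Of 12 fibroblast markers, 9 were at or below the controls on all arrays, among them Col1a1, Col1a2, Col3a1, Dcn and Lum. The number above the controls was 3 on day 0 and 1 on each later day, and the list median went from 3.34 to 3.45, 3.52 and 3.48. Twist1 read 5.11, 4.33, 3.74 and 4.20, and Pdgfrb stayed between 4.87 and 5.13. Of 9 macrophage and neutrophil markers 5, including Ptprc, Csf1r and Itgam, were at or below the controls throughout, as were 4 of 7 endothelial and 5 of 8 skeletal muscle markers. Cd14 read 10.66 on day 0 and 8.80 on day 9, Cd68 read 5.32 on day 0 and 6.18 on day 9, and the part of any other cell type in the MMP values was not tested.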

How the data were processed

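The authors deposited log2 values per probe set for 1 array per day, and RMA is the method named in the submitters' processing notes. That the values are log2 was judged from their range, and the RMA software is not given in the sources used here. RMA puts the arrays on nearly the same distribution, so changes in total RNA per cell are not measured. Scanner files were not used here.

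Probe sets were named from the platform annotation, with 1 symbol for 20832 of 31099, several for 436 and none for 9831. Of those with 1 symbol, 20764 matched RefSeq (GRCr8) by Entrez identifier and 0 symbols changed. Each gene is represented by its brightest probe set on average. The rule of 2-fold was tried on simulated arrays, with noise taken from the differences between the day 6 and day 9 arrays. Without replicates the noise between arrays or cultures is not known, so the simulation does not give an error rate for these data. The members and lists were chosen with earlier results of these data known. Named were all members, up to 4 genes of each list with the largest day 9 difference, all other MMPs that reached 6, and the 3 genes nearest to each member that reached 6 and had a range of 1 or more. Genes named beside these were chosen for their known role or position, some after their values were seen. "At least" folds set the bright array against the brightest bacterial control on the dim array. Python 3.11.15, numpy 2.4.6, pandas 2.3.3 and matplotlib 3.10.9 were used. Alternatives changed the floor (absent, 5 or 8), the choice of probe sets (their mean, or those without a mark of cross-hybridisation), the scaling (centred on the median gene or on 18 spike-in probe sets, or quantile normalized again) and the threshold (1.5-fold or 3-fold), or had values below the controls set to them. The second brightest probe set of each member was chosen after seeing the data.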

Additional observations from a re-analysis of the deposited data

How the results depend on the processing

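Of 231 values for the difference of a member from day 0 under an alternative setting, 215 kept their direction and their side of the 2-fold threshold or were below it in both, 5 fell below it, 10 rose above it and 1 turned. All 10 that rose above it were values of Timp2. The value that turned was Mmp10 on day 3, at 0.16 with values below the bacterial controls set to them, where the control level itself rises. A turn was counted only where a difference reached the threshold. Turns below it, as for Mmp14 under spike-in centring, are among the 215. Some of the 231 values could not change, such as those of genes with 1 probe set under another choice of probe sets. The number of members 2-fold apart was 5 on day 3 with no floor, since more genes were counted. From day 3 to day 6 it was 1 at 1.5-fold (Mmp13) and 1 with the second brightest probe sets (Timp2). From day 6 to day 9 it was 1 with a floor of 8, namely Mmp3, which lay below the controls on both arrays. It was also 1 at 3-fold, and with values below the controls set to them, in both cases Mmp13. Mmp3 and Timp1 were lower than on day 0 on all later days under every setting except Timp1 on day 3 at 3-fold. Mmp13 on day 9 lost its call at 3-fold too. Leaving out a replicate was not possible with 1 array per day. No paired analysis was possible because each day has 1 array. The spike-ins rose by a median of 0.14, 0.39 and 0.63 on days 3, 6 and 9. Signal over background limits Mmp3 and Mmp9 after day 0, Mmp13 on days 3 and 6, and Mmp10 on every array. Low signal also limits Mmp2 and Timp3, whose brightest probe sets lay close to the controls and whose other sets were mostly below them.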

Other observations

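Each TIMP gene overlaps another gene in RefSeq. Syn1, a synapsin gene that spans Timp1, read 5.25, 5.10, 5.23 and 5.12 on days 0, 3, 6 and 9 and did not follow it. Cep295nl, which overlaps Timp2, read 5.03, 4.99, 5.37 and 5.91. Syn3, which overlaps Timp3, stayed between 2.79 and 3.04, below the bacterial controls. Adamts15, a gene of a proteoglycan-cutting protease that did not reach 6, read 4.01, 4.20, 4.37 and 5.14 and exceeded the controls on day 9 only. It was chosen after its values were seen.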
